A study of Homo sapiens with 6 samples.

Results

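The peroxisome was examined through 45 genes of its biogenesis and metabolism: 13 peroxins, 7 transporters and membrane proteins, 12 beta-oxidation enzymes, 4 enzymes of alpha-oxidation and acyl-CoA hydrolysis, 3 ether lipid enzymes and 6 genes of oxidant, glyoxylate and protein turnover. They were chosen by gene symbol from knowledge of the organelle, with earlier results of these data known, and all 45 were found once each among the 60623 genes of the RNA sequencing files. HFPO-TA (the trimer acid of hexafluoropropylene oxide, a per- and polyfluoroalkyl substance) had been added to the cells of 3 libraries, and 0.1% DMSO, the solvent control, to those of 3 others. Both groups are labelled as hepatoblasts at day 19 of a hepatocyte differentiation and come from H9, a single human embryonic stem cell line. The dose of HFPO-TA is printed as 10 in a garbled unit, no exposure time is stated, and DMSO is recorded for the control cells alone. Since separate cultures are not mentioned for the replicates, their spread, on which all p-values rest, may be technical.

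Peroxisomes are organelles bounded by a single membrane that shorten very-long-chain and branched fatty acids, make the first bonds of ether lipids and detoxify the hydrogen peroxide that their oxidases release. Peroxins (PEX proteins) build the membrane, import folded enzymes from the cytosol and drive division. In rodent liver, ligands of the nuclear receptor PPARA multiply peroxisomes and raise their beta-oxidation enzymes, and this response is known to be much weaker in human liver cells. Several perfluoroalkyl acids are known PPARA ligands.

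Levels are given in TPM, a transcript abundance scaled to gene length, so levels of different genes can be compared. The 6 libraries listed between 15383 and 15905 genes at 1 TPM or more. Among liver-lineage markers the fetal protein AFP stood between 63150 and 66804 TPM in HFPO-TA libraries and between 71682 and 79063 TPM in DMSO libraries. Albumin, ALB, was far lower, at 54.1 to 73.5 TPM with HFPO-TA and 101 to 129 TPM with DMSO. Of the 4 pluripotency markers POU5F1, NANOG and SOX2 were below the level needed for the test and overlapped between groups, with POU5F1 the highest at 0.19 to 1.75 TPM with HFPO-TA and 0.33 to 0.78 TPM with DMSO. The fourth, LIN28A, stood at 5.58 to 6.48 TPM with HFPO-TA and 7.05 to 7.33 TPM with DMSO, without overlap, and did not pass the test. The 4 stromal markers (COL1A1, COL1A2, COL3A1 and PDGFRB) summed to 1797 TPM in HFPO-TA replicate 1, 871 TPM in replicate 2 and 857 TPM in replicate 3, and to 1646, 1028 and 1204 TPM in DMSO replicates 1, 2 and 3. Replicate 1 was thus the highest of both groups, and the groups overlapped. These are bulk samples, in which fewer cells of a type and less RNA per cell cannot be told apart.

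Few of the organelle's genes passed the test. Of the 43 members that had at least 1 TPM in 3 or more libraries, 2 rose with HFPO-TA, 0 fell and 41 did not pass the test. Both, HSD17B4 and HSDL2, stood in the group listed here as beta-oxidation enzymes, where the placing of HSDL2 is a choice of this grouping. The test was limma on log2(TPM + 1), with a Benjamini-Hochberg adjusted p under 0.05 over all 15664 genes tested, 2-sided. By this rule 29 genes, 0.185%, were called higher among all genes, and 48, 0.306%, lower, while upper-quartile scaling gave 9 and 8. Taking p under 0.05 without adjustment, 9 members were higher and 1 lower, together 10 of 43, where the share of all genes was 12%. In 10 tested members each HFPO-TA library lay above each DMSO library, and in 1 member, ACOX2, each lay below. Among all genes tested 8.55% were separated upwards and 9.4% downwards. The median log2 fold change was 0.07 over the members and -0.01 over all genes tested. The remaining 2 members, CAT and HAO1, were too low to test.

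**Figure D1:**
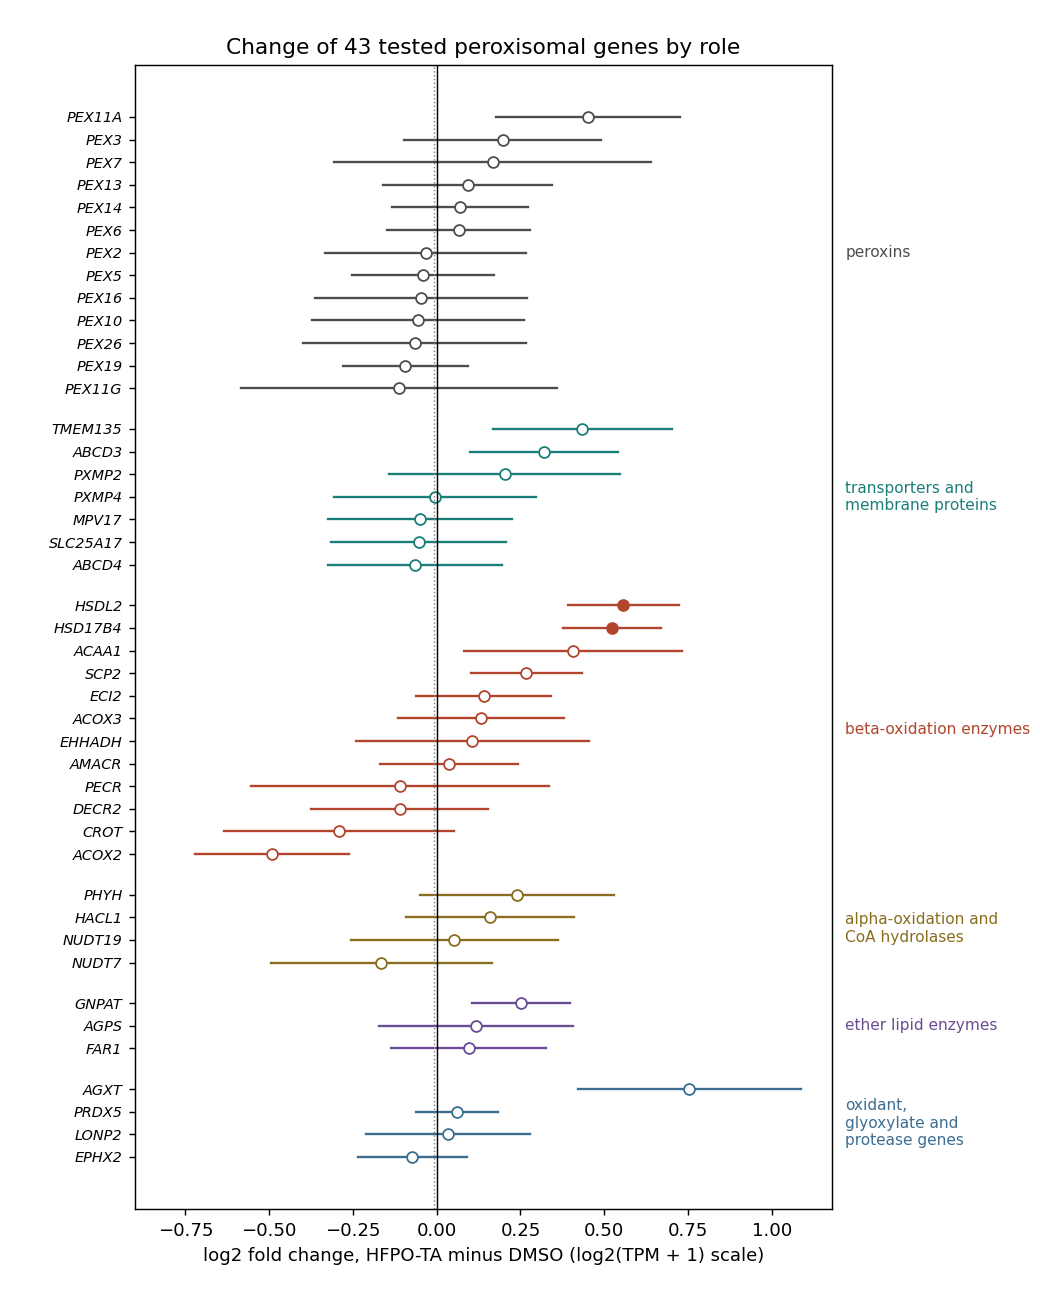
Log2 fold change (HFPO-TA over DMSO, log2(TPM + 1) scale) of the 43 tested members with 95% intervals, grouped by role. Filled points passed an adjusted p under 0.05 over all genes, and these are HSDL2 and HSD17B4; the dotted line is the median of all genes tested, -0.01.

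Among the 13 peroxins 0 rose and 0 fell, 6 lay above 0 and 7 below, and their median log2 fold change was -0.03. For 10 of the 13 the 95% interval lay within a log2 change of 0.5 either way. PEX5, the receptor that carries most matrix enzymes into the organelle, had 21.0, 19.4 and 21.4 TPM in HFPO-TA libraries, against 22.5, 21.6 and 19.6 TPM in DMSO libraries. Its log2 fold change was -0.04 (95% interval -0.25 to 0.17, adjusted p = 0.908 with limma).

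PEX7, the receptor for the smaller set of enzymes with an amino-terminal signal, among them the ether lipid enzyme AGPS, had 5.23, 9.0 and 9.59 TPM with HFPO-TA, against 7.19, 6.15 and 6.95 TPM with DMSO. The HFPO-TA libraries lay on both sides of the DMSO libraries, with replicate 1 the lowest of all 6 (log2 fold change 0.17, interval -0.31 to 0.64). The docking proteins PEX13 and PEX14 averaged 21.6 ± 2.16 and 16.7 ± 0.54 TPM with HFPO-TA, and 20.2 ± 1.95 and 15.9 ± 0.69 TPM with DMSO (SD, n = 3 each). The ubiquitin ligase subunits PEX2 and PEX10, which release the receptor for another round, had log2 fold changes of -0.03 and -0.06. The ATPase subunit PEX6 and its membrane anchor PEX26 had 0.07 and -0.07.

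Of the factors that place membrane proteins, PEX3, the docking site on the membrane, had 5.59, 5.33 and 4.64 TPM with HFPO-TA, against 4.21, 4.37 and 4.58 TPM with DMSO. These ranges did not overlap but nearly touched (log2 fold change 0.20, SE 0.13, adjusted p = 0.61 with limma). PEX16, its membrane receptor, had -0.05, and PEX19, the chaperone of new membrane proteins, -0.09. PEX11A, which elongates peroxisomes before division and is a PPARA target in rodents, was the peroxin farthest from 0. It had 13.9, 11.5 and 11.3 TPM with HFPO-TA, against 8.10, 9.27 and 8.51 TPM with DMSO. All 3 HFPO-TA libraries lay above all 3 DMSO libraries, yet the gene did not pass the test (log2 fold change 0.45, SE 0.12, adjusted p = 0.175 with limma). Its relative PEX11G was the lowest peroxin, at 1.54 ± 0.55 TPM with HFPO-TA and 1.71 ± 0.27 TPM with DMSO (SD, n = 3 each).

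Of the 7 transporters and membrane proteins 0 passed, 3 lay above 0 and the median log2 fold change was -0.01. TMEM135, a membrane protein of peroxisomes and mitochondria, had 32.5, 23.8 and 28.98 TPM with HFPO-TA, against 20.8, 20.5 and 20.5 TPM with DMSO. The DMSO libraries were almost level and the HFPO-TA libraries were spread above them (log2 fold change 0.44, SE 0.12, adjusted p = 0.183 with limma). ABCD3, the transporter that brings branched-chain and bile acid precursor CoA esters into peroxisomes, had 32.5, 38.6 and 37.9 TPM with HFPO-TA, against 28.1, 31.1 and 27.4 TPM with DMSO. The ranges did not overlap (log2 fold change 0.32, SE 0.10, adjusted p = 0.234 with limma).

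The other 5 overlapped between groups. PXMP2, a membrane channel, had a log2 fold change of 0.20, PXMP4 -0.01, and the cofactor carrier SLC25A17 -0.05. ABCD4, a relative of ABCD3 known from vitamin B12 export out of lysosomes, had -0.06. MPV17, a relative of PXMP2 that is known mainly as a protein of the inner mitochondrial membrane, had -0.05.

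The group of beta-oxidation enzymes, in which HSDL2 was placed by choice, held both members that rose. HSD17B4, the D-bifunctional protein that hydrates and dehydrogenates the enoyl-CoA esters of straight, branched and bile acid side chains, had 288, 312 and 322 TPM in HFPO-TA libraries, against 213, 223 and 205 TPM in DMSO libraries. The ranges stood well apart (log2 fold change 0.52, SE 0.06, 95% interval 0.38 to 0.67, adjusted p = 0.0248 with limma). HSDL2, a dehydrogenase-like protein with a sterol carrier domain, had 67.3, 71.2 and 74.0 TPM with HFPO-TA, against 47.8, 50.2 and 45.6 TPM with DMSO. It too rose in all 3 libraries (log2 fold change 0.56, SE 0.07, interval 0.39 to 0.72, adjusted p = 0.0319 with limma), and as a ratio of mean TPM it was 1.48 times and HSD17B4 1.44 times the DMSO level. In GENCODE 29 (GRCh38) HSD17B4 lies on chromosome 5 from 119452443 to 119637199 and HSDL2 on chromosome 9 from 112379937 to 112472410, both on the plus strand.

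Both calls were lost in most fits with a library left out and in several other settings. Without HFPO-TA replicate 1 both were kept (limma adjusted p = 0.011 for HSD17B4 and 0.0199 for HSDL2). Without any of the other 5 libraries, in turn, both were lost (limma adjusted p from 0.0636 to 0.189). Each of those 5 fits has a library fewer, and the genes called among all tested numbered 6 to 47, against 77 with all libraries. HSD17B4 and HSDL2 were also both lost with the replicate as a block, with either rescaling, without a filter and with a plain variance estimate, and HSDL2 with a 0.1 TPM filter (limma adjusted p from 0.0507 to 0.121). Their fold changes stayed between 0.49 and 0.59.

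**Figure D2:**
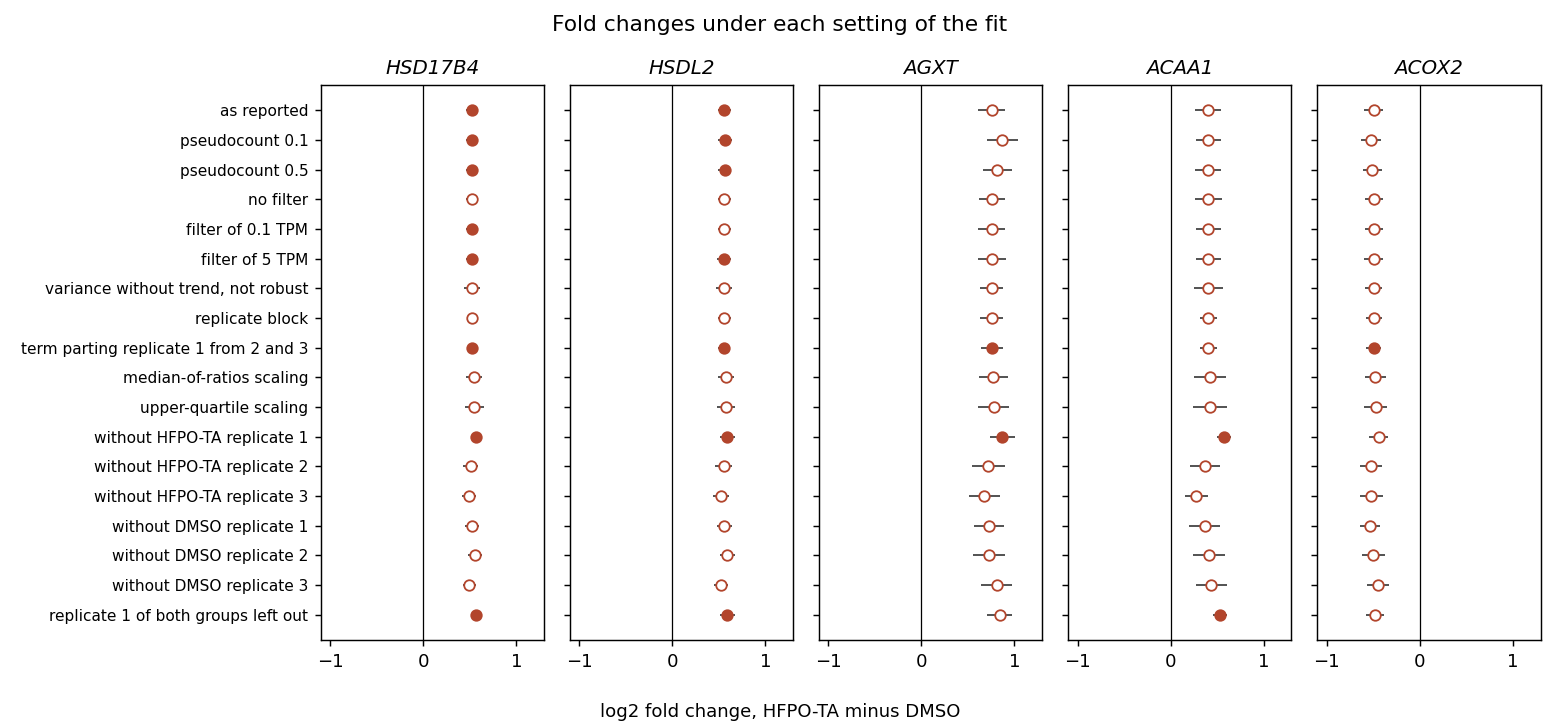
Log2 fold change (HFPO-TA minus DMSO) with its SE for 5 members under each setting of the fit, filled where the adjusted p was under 0.05. HSD17B4 and HSDL2 keep nearly the same fold change while the call comes and goes, and AGXT, ACAA1 and ACOX2 are filled in 1 or 2 settings each.

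The 250 bases before the RefSeq start (GRCh38.p14) of both genes that rose are shown because a shared stretch of regulatory sequence is a first question about members that move together. TMEM135 is added because, of the members read whose groups did not overlap, it alone held AGGTCA, the core that PPARA and its partner RXR bind in tandem. Capitals mark AGGTCA or its complement TGACCT and the GC box GGGCGG or CCGCCC. They lie at chr5:119452247-119452496, chr9:112379858-112380107 and chr11:87037684-87037933, all on the plus strand. GENCODE 29 starts these genes earlier than RefSeq does, so that the last 54 bases of the HSD17B4 stretch, 171 of the HSDL2 stretch and 90 of the TMEM135 stretch lie inside the gene as GENCODE annotates it.
HSD17B4: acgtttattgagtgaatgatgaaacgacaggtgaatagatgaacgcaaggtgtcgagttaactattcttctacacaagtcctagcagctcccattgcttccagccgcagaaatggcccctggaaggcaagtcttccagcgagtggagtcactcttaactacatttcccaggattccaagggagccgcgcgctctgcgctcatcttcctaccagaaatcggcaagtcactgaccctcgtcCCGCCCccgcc
HSDL2: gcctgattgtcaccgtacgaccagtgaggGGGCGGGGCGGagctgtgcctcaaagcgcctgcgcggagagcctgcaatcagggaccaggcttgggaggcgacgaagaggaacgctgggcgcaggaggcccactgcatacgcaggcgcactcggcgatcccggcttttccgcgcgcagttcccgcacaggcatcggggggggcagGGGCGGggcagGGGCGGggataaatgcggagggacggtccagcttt
TMEM135: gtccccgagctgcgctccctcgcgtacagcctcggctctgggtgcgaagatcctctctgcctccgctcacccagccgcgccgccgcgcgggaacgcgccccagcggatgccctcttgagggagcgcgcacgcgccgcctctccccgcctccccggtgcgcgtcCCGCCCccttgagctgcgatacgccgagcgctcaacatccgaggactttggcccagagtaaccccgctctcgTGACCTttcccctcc
HSD17B4 held 1 GC box, beginning 11 bases before the start, and HSDL2 held 4, of which the first 2 overlap; neither held AGGTCA. TMEM135 held AGGTCA in reverse, beginning 15 bases before the start, and 1 GC box. The tandem motif AGGTCANAGGTCA, read on both strands without mismatches, was in 0 of the 48 stretches of the 38 members read. Some members have several starts. The exact motif was in only 6 of all 35116 stretches, 0.0171%, so 0 in 48 was likely beforehand and cannot set the members apart. The other 7 members, EHHADH, ACOX2, ACAA1, DECR2, PEX14, PEX2 and EPHX2, were not read. AGGTCA alone was in 3 of the 48 stretches, those of AGPS, PXMP4 and TMEM135, which is 6.25%, against 12.1% of all stretches. GGGCGG was in 36 of the 48, 75%, against 42.6% of all. The stretches were not matched for GC content or expression, and several of the 48 come from the same gene. Median GC content was 58% over all stretches, and it was 52.8% in the HSD17B4 stretch, 69.2% in that of HSDL2 and 72% in that of TMEM135. Whether GC content accounts for the difference was not tested. A match is a description of the letters and not a binding site, and more distant sequence was not read.

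Among the other 10 beta-oxidation enzymes 0 passed, and the median over all 12 was 0.12. ACAA1, the thiolase that releases acetyl-CoA at the end of a cycle, had 215, 285 and 323 TPM with HFPO-TA, against 193, 206 and 214 TPM with DMSO. HFPO-TA replicate 1 lay just above the DMSO libraries and the other two far above (log2 fold change 0.41, SE 0.14, adjusted p = 0.298 with limma). Without HFPO-TA replicate 1, whose stromal marker sum was the highest, ACAA1 was called at 0.57 (limma adjusted p = 0.0216). Whether those markers bear on it was not tested. SCP2, the sterol carrier and thiolase of branched side chains, was looked at after its values were seen. It had 122, 129 and 119 TPM with HFPO-TA, against 95.9, 110 and 101 TPM with DMSO, with no overlap (log2 fold change 0.27, adjusted p = 0.184 with limma).

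EHHADH is the L-bifunctional enzyme and a strong PPARA target in rodents. It had 9.03, 10.45 and 12.98 TPM with HFPO-TA, against 8.74, 9.91 and 11.1 TPM with DMSO, and the groups overlapped (log2 fold change 0.11, 95% interval -0.24 to 0.45, adjusted p = 0.848 with limma). HSD17B4 was 31.9, 29.9 and 24.8 times the level of EHHADH in HFPO-TA libraries and 24.3, 22.5 and 18.5 times in DMSO libraries. The ratio was higher in each HFPO-TA library than in each DMSO library, and its difference was not tested.

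ACOX2, the oxidase of branched fatty acids and bile acid precursors, was the only tested member separated downwards, and was also singled out after its values were seen. It had 11.3, 12.8 and 12.7 TPM with HFPO-TA, against 16.6, 17.5 and 18.9 TPM with DMSO (log2 fold change -0.49, SE 0.10, adjusted p = 0.0901 with limma). It was called lower with replicate 1 fitted as a batch of its own (adjusted p = 0.045 with limma). CROT, which makes carnitine esters of shortened chains for export, had -0.29 with overlapping groups (adjusted p = 0.493 with limma).

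The remaining enzymes lay within 0.15 of 0 on the log2 scale. The isomerase ECI2, among the most abundant members at 160 ± 7.74 TPM with HFPO-TA and 145 ± 15.4 TPM with DMSO (SD, n = 3 each), had 0.14. The branched-chain oxidase ACOX3 had 0.13 and the racemase AMACR 0.04. The reductases PECR and DECR2, which deal with double bonds, had -0.11 each.

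**Figure D3:**
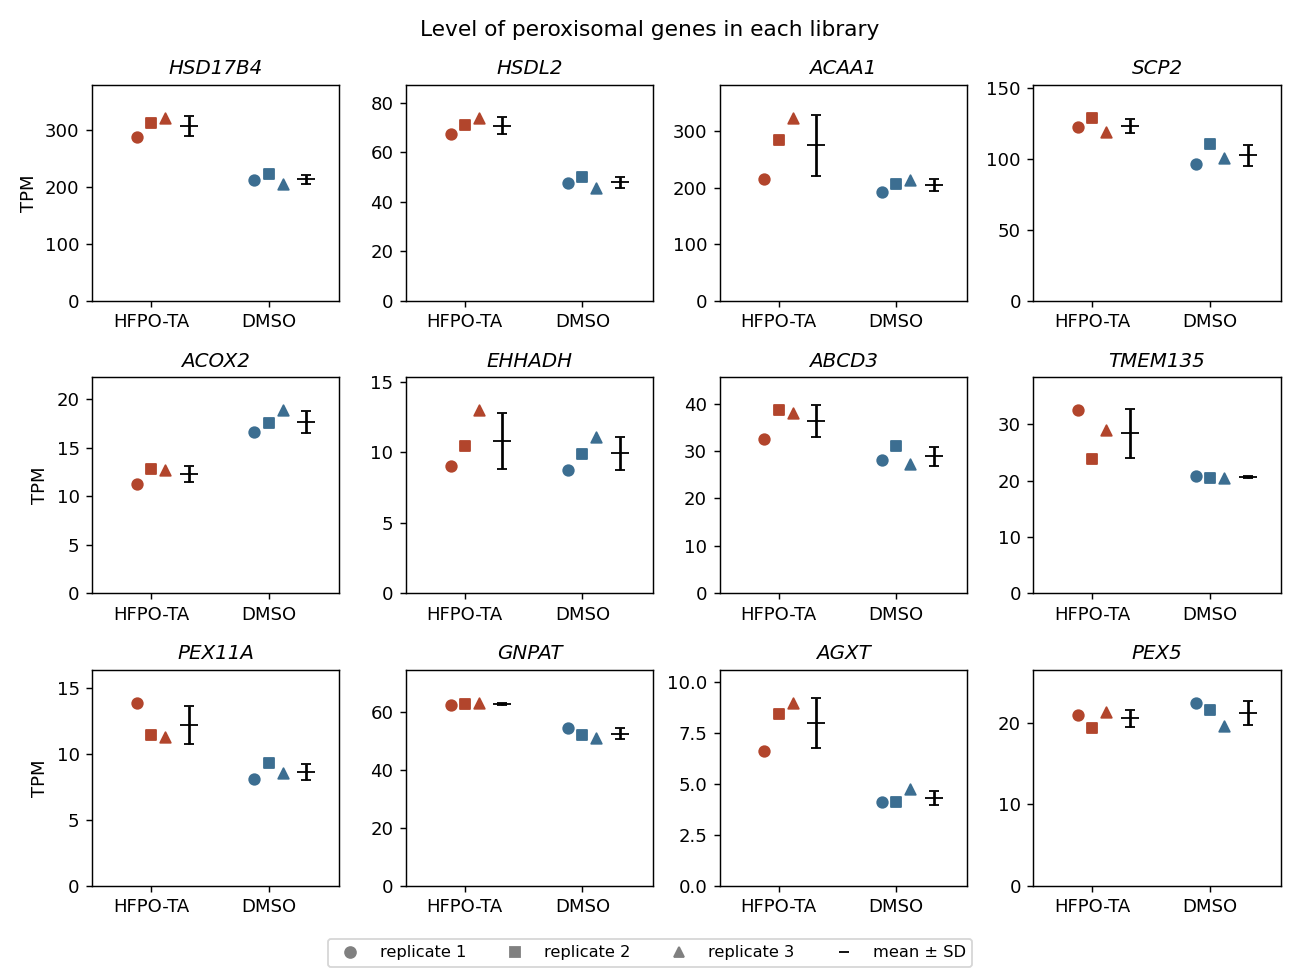
TPM of 12 members in each library (points, shaped by replicate) with the mean and SD of 3 libraries beside them, each axis starting at 0. HSD17B4, HSDL2 and GNPAT form tight, separate groups. Among the HFPO-TA libraries alone, replicate 1 has the lowest ACAA1 and AGXT, still above all DMSO libraries. ACOX2 is lower with HFPO-TA, and EHHADH and PEX5 overlap.

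Alpha-oxidation, which removes a carbon from phytanic acid before beta-oxidation can start, showed 0 called genes among its members and the acyl-CoA hydrolases. PHYH, the phytanoyl-CoA hydroxylase, had 34.1, 38.7 and 42.9 TPM with HFPO-TA, against 27.4, 35.1 and 35.2 TPM with DMSO, with overlap (log2 fold change 0.24, adjusted p = 0.506 with limma). HACL1, the lyase that follows it, had 18.2, 17.9 and 17.9 TPM with HFPO-TA, against 14.2, 18.3 and 15.8 TPM with DMSO (log2 fold change 0.16, adjusted p = 0.636 with limma). The CoA diphosphatases NUDT7 and NUDT19 had -0.17 and 0.05.

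All 3 ether lipid enzymes lay above 0, with 0 called and a median of 0.12. GNPAT, which acylates dihydroxyacetone phosphate as the first step, had 62.4, 62.7 and 63.2 TPM with HFPO-TA, against 54.6, 52.0 and 51.2 TPM with DMSO. The HFPO-TA libraries were nearly level and above all DMSO libraries (log2 fold change 0.25, SE 0.06, adjusted p = 0.161 with limma). AGPS, which then forms the ether bond, had 10.6, 11.8 and 13.8 TPM with HFPO-TA, against 12.2, 10.3 and 10.6 TPM with DMSO, with overlap (log2 fold change 0.12, adjusted p = 0.783 with limma). FAR1, which supplies the fatty alcohol and sets the rate, had 20.9, 22.2 and 23.1 TPM with HFPO-TA, against 19.0, 23.1 and 19.9 TPM with DMSO (log2 fold change 0.10, adjusted p = 0.777 with limma).

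Among the oxidant, glyoxylate and protein turnover genes, catalase itself was listed near 0. CAT, whose product breaks down hydrogen peroxide and is the classic marker enzyme of liver peroxisomes, was listed at 0.04, 0.08 and 0.26 TPM with HFPO-TA and at 0.07, 0.04 and 0.26 TPM with DMSO. Whether these values near 0 reflect few transcripts or a failed estimate was not tested, since the files hold no read counts. HAO1, the liver glycolate oxidase, was listed at 0 in all 3 HFPO-TA libraries and at 0, 0.05 and 0.05 TPM in DMSO libraries. PRDX5, a peroxidase that also works in mitochondria and the cytosol, was the most abundant member. It had 410, 427 and 435 TPM with HFPO-TA, against 389, 412 and 418 TPM with DMSO, and the groups overlapped (log2 fold change 0.06, 95% interval -0.06 to 0.18, adjusted p = 0.728 with limma).

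AGXT, the liver enzyme that turns glyoxylate into glycine, had the largest fold change of the 43 tested members. It had 6.60, 8.40 and 8.96 TPM with HFPO-TA, against 4.09, 4.09 and 4.72 TPM with DMSO, a ratio of means of 1.86. The ranges did not overlap, but the gene did not pass (log2 fold change 0.75, SE 0.14, adjusted p = 0.0772 with limma). It was called without HFPO-TA replicate 1 (0.87, adjusted p = 0.0287) and with replicate 1 fitted as a batch of its own (adjusted p = 0.0442). The epoxide hydrolase EPHX2 averaged 70.7 ± 4.68 TPM with HFPO-TA and 74.3 ± 1.76 TPM with DMSO (SD, n = 3 each), and the matrix protease LONP2 had a log2 fold change of 0.03.

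Summed over each role, the beta-oxidation enzymes held 945, 1070 and 1122 TPM in HFPO-TA libraries, against 787, 861 and 846 TPM in DMSO libraries. The peroxins held 213, 221 and 223 TPM with HFPO-TA, against 221, 216 and 209 TPM with DMSO. The enzymes were thus separated between groups and the peroxins were not. There were 4.43, 4.83 and 5.03 TPM of beta-oxidation enzymes for each TPM of peroxins with HFPO-TA, and 3.56, 3.99 and 4.04 TPM with DMSO. Without HSD17B4 and HSDL2 the enzymes summed to 589, 687 and 726 TPM with HFPO-TA and to 526, 588 and 596 TPM with DMSO, and these ranges overlapped. Their ratios to the peroxins then overlapped too, at 2.77, 3.10 and 3.25 with HFPO-TA and 2.38, 2.73 and 2.85 with DMSO. In the same libraries the 9 liver-lineage markers, of which 0 passed, summed to between 98168 and 106520 TPM with HFPO-TA and between 105384 and 116493 TPM with DMSO, with AFP, ALB, TTR and HNF4A lower and APOA2 higher without overlap; their part in these sums was not tested.

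The ether lipid enzymes summed to 94.0, 96.8 and 100.1 TPM with HFPO-TA and to 85.8, 85.5 and 81.7 TPM with DMSO, without overlap. GNPAT made up most of this sum, with a mean of 62.8 TPM with HFPO-TA and 52.6 TPM with DMSO. AGPS and FAR1 each overlapped between groups. The sums for alpha-oxidation and CoA hydrolysis (67.6 to 73.4 TPM with HFPO-TA, 56 to 66.99 TPM with DMSO) and for the oxidant group (520.9 to 539 TPM with HFPO-TA, 500.2 to 520.7 TPM with DMSO) were parted by less than 1 TPM. Transporters and membrane proteins overlapped, at 172 to 198 TPM with HFPO-TA and 163 to 180 TPM with DMSO. All 45 members together held 2145 ± 101 TPM with HFPO-TA and 1876 ± 40.4 TPM with DMSO (SD, n = 3 each). The 3 most abundant, PRDX5, HSD17B4 and ACAA1, made up 46.9% of that sum with HFPO-TA and 43.95% with DMSO.

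**Figure D4:**
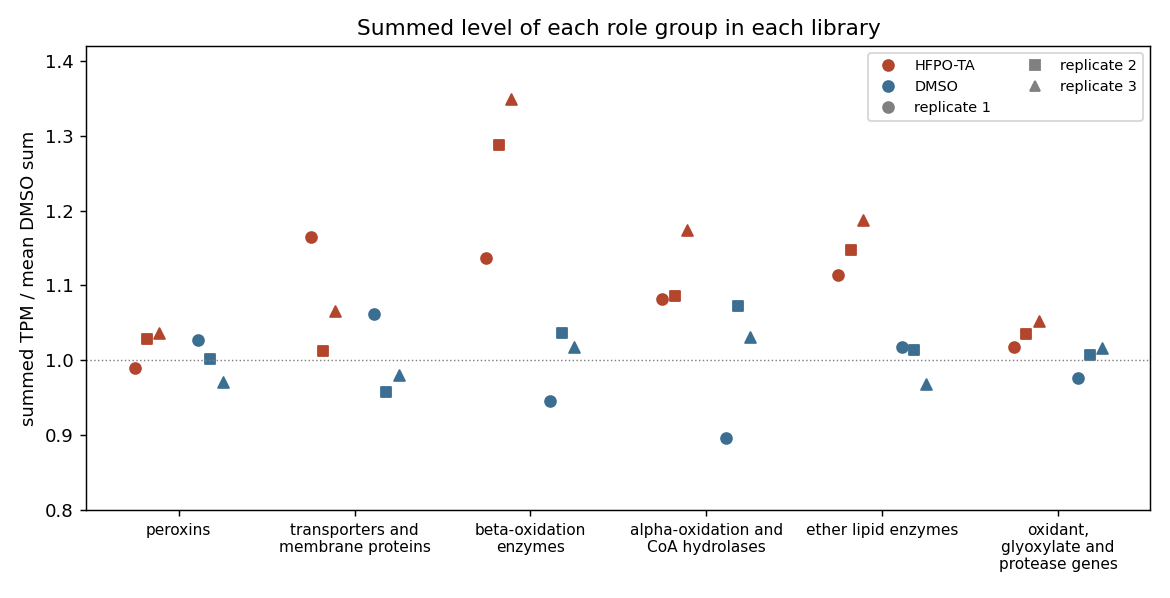
Summed TPM of each role group in each library divided by the mean of its DMSO libraries (the axis does not start at 0). Beta-oxidation enzymes and ether lipid enzymes are separated between HFPO-TA and DMSO, the alpha-oxidation and oxidant groups are barely parted, and peroxins overlap around 1. GNPAT makes up most of the ether lipid sum, and without HSD17B4 and HSDL2 the beta-oxidation sums overlap.

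A further 32 genes of the organelle that are not among the 45 were also listed. Of the 28 that could be tested 2 rose, 0 fell and 26 did not pass, and their median log2 fold change was -0.01. SLC27A2, which activates very-long-chain and branched fatty acids on the peroxisome and other membranes, had 24.1, 28.7 and 30.3 TPM with HFPO-TA, against 14.1, 16.1 and 15.6 TPM with DMSO (log2 fold change 0.82, SE 0.11, adjusted p = 0.0324 with limma). IDH1, which makes NADPH in the cytosol and in peroxisomes, had 274, 303 and 314 TPM with HFPO-TA, against 203, 210 and 217 TPM with DMSO (log2 fold change 0.50, SE 0.07, adjusted p = 0.0324 with limma). For both genes the 3 HFPO-TA libraries stood clear of all DMSO libraries. Neither gene of this list that rose was called without any of the libraries HFPO-TA replicate 2, HFPO-TA replicate 3 and DMSO replicates 1 to 3, left out in turn.

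Reads could be shared for some members, since it is not known whether the libraries kept strand. Of the 45 genes, 31 overlap another annotated gene, and for 23 of these every partner stood below 6 TPM. The partners of HSD17B4 reached at most 0.13 TPM with HFPO-TA and 0 TPM with DMSO, and that of HSDL2 had 0.74 TPM with HFPO-TA and 1.11 TPM with DMSO. The other 8 had a partner at or above that level, among them NME4 beside DECR2 (246 TPM with HFPO-TA and 241 TPM with DMSO), RER1 beside PEX10 (98.4 TPM with HFPO-TA and 94.6 TPM with DMSO), NFE2L2 beside AGPS (41.2 TPM with HFPO-TA and 40.4 TPM with DMSO) and BTD beside HACL1 (38.2 TPM with HFPO-TA and 36.4 TPM with DMSO). The rest were PEX14 with DFFA (16.5 TPM with HFPO-TA and 17.2 TPM with DMSO), LONP2 with SIAH1 (16.5 TPM with HFPO-TA and 14.9 TPM with DMSO), PEX19 with AL139011.2 (12.8 TPM with HFPO-TA and 14.8 TPM with DMSO) and PEX13 with PUS10 (7.16 TPM with HFPO-TA and 5.29 TPM with DMSO). A search for near-identical transcripts of other genes found them for 11 members, and the partner with the highest level beyond the genes already named was NUCKS1 for PEX26 (71.2 TPM with HFPO-TA and 69.0 TPM with DMSO). The levels of these 9 members are uncertain, and so may be those of low members with a partner below 6 TPM. Beside ACOX3 stood TRMT44 (5.86 TPM with HFPO-TA and 4.67 TPM with DMSO). On the strand of PEX11A stood RPL36AP43 (2.93 TPM with HFPO-TA and 1.77 TPM with DMSO) and PLIN1 (2.62 TPM with HFPO-TA and 2.55 TPM with DMSO).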

How the data were processed

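RNA was sequenced from 6 libraries, 3 HFPO-TA and 3 DMSO, grouped by the sample titles. Per the submitters' processing notes, the tools included HISAT, Bowtie2 and RSEM, with the build GRCh38.p13; their roles and versions, the annotation and the strand setting are not stated. The deposited column is headed FPKM, but its sum is between 995690 and 996186 in each library, so the authors' values were read as TPM. Sequencing depth cannot be read from TPM and is unknown here, so counting intervals are left out and no count test was run.

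On the log2(TPM + 1) scale, the genes reaching 1 TPM in 3 or more libraries (15664) were fitted with limma 3.58.1 in R 4.3.3 with treatment as the only term, trended and robust variance and Benjamini-Hochberg adjustment. On simulated data for this comparison (15664 genes, 200 changed, 10 runs) the share of changed genes recovered was 34.9% for a log2 change of 0.5, 89.0% for 1 and 97.9% for 2, and 7.06% of called genes were unchanged ones. Many changes near 0.5 would thus be missed. The changed genes were drawn only from those with a mean log2(TPM + 1) over 2, and noise was independent between libraries. No structure shared by replicate 1 was simulated, so these shares may differ in the real libraries.

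The members and lists were chosen with earlier results of these data known. Per-library values were set to be given for called members, the 2 members of each role with the smallest p and 12 genes whatever their values, with the rest given by mean, fold change or range; the per-library values of SCP2 and ACOX2 were added after they were seen. Of the other peroxisome genes the rule named the called ones. Positions and overlaps came from GENCODE 29, and upstream sequences from RefSeq (GRCh38.p14), matched by symbol for 38 members. Shared sequence was searched with blastn 2.17.0, and Python 3.11.15 with matplotlib 3.10.9 drew the figures. Alternatives covered the pseudocount, filter, variance estimate, replicate block, replicate 1 as a batch of its own (by a letter in the column names that the labels do not explain), scaling and each library left out.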

Additional observations from a re-analysis of the deposited data

How the results depend on the processing

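The calls turned on the setting more than the fold changes did. Members called higher, 2 as reported, numbered 0 without a filter, with a plain variance estimate, with the replicate block and with median-of-ratios or upper-quartile scaling, and 1 with a 0.1 TPM filter. Leaving out a library gave 0 to 4, with 4 (HSD17B4, HSDL2, AGXT and ACAA1) without HFPO-TA replicate 1. Members called lower numbered 1, ACOX2 (adjusted p = 0.045), with replicate 1 as a batch of its own. The other peroxisome genes called higher numbered 0 without a filter, with the 0.1 TPM filter, with the plain variance estimate and with either scaling, and 0 to 2 with a library left out.

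Over all genes the higher and lower counts, 29 and 48, were 6 and 4 without a filter, 12 and 17 with 0.1 TPM, 49 and 81 with 5 TPM, 8 and 3 with the plain variance, 12 and 18 with the replicate block, 72 and 135 with replicate 1 as a batch, 12 and 18 with median-of-ratios scaling, 9 and 8 with upper-quartile scaling, and 80 and 142 with replicate 1 of both groups left out. With a library left out they ran from 6 to 94 and from 0 to 197. The cause was not tested. The ether lipid median was 0.27 with replicate 1 of both groups left out.

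The labels give both groups replicate numbers 1 to 3. Deviations of same-numbered libraries correlated at 0.18, 0.12 and 0.03 for replicates 1, 2 and 3. Those of differently numbered libraries ran from -0.16 to 0.07, so replicates 1 and 2 lay above all of them and replicate 3 did not. HFPO-TA replicate 1 correlated most closely with DMSO replicate 1 (0.981), above HFPO-TA replicate 2 (0.978). Whether the numbers mark pairs was not tested, and the main fit did not take them as pairs. With the replicate block 0 members were called (limma adjusted p = 0.0535 for HSD17B4 and 0.0625 for HSDL2).

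Signs turned only for members that were not called. With replicate 1 of both groups left out the log2 fold change was 0.0974 for PEX2, 0.076 for PEX10, 0.0463 for PEX11G, 0.0584 for PEX16 and 0.0016 for SLC25A17. For PXMP4 it was 0.00856 with median-of-ratios and 0.0116 with upper-quartile scaling. With a library left out it ran from -0.167 to 0.0901 for PEX2, from -0.0166 to 0.107 for PEX6, from -0.156 to 0.0736 for PEX10, from -0.266 to 0.0502 for PEX11G, from -0.202 to 0.0347 for PEX16, from -0.153 to 0.0482 for PEX26 and from -0.171 to 0.0069 for ABCD4. It ran from -0.153 to 0.00161 for SLC25A17, from -0.0335 to 0.0221 for PXMP4, from -0.182 to 0.0408 for MPV17, from -0.0214 to 0.218 for EHHADH, from -0.248 to 0.0905 for PECR, from -0.0156 to 0.113 for NUDT19 and from -0.0514 to 0.13 for LONP2.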
